A study of Mus musculus with 16 samples.

Results

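Transcripts of 9 intestinal epithelial genes were followed through 4 sorted populations of thymic cells, called medullary thymic epithelial cells (mTEC) here. The genes were Lgals4, Gpa33, Pigr, Oit1, Cdhr5, Cdhr2, Slc5a9, Vil1 and Cdh17. They are 9 of the 43432 genes counted, and they were picked by symbol as enterocyte surface and brush-border genes whose level was higher in lineage-labelled cells. The differences between labelled and unlabelled cells therefore chose them and are given here as a description, without a test. Differences between the gates for surface MHC class II were not named in the choice and were tested. They rest on the same libraries as the label differences, so the choice can shift them too. The name of the set holds only in part: the product of Oit1 is secreted, and the product of Vil1 lies inside the microvillus.

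The mTEC line the thymic medulla and display proteins of peripheral tissues to developing T cells. All mice were C57BL6.Aire-CreERT2.Ai14 animals aged 5 to 6 weeks, of both sexes, and all had received 2 mg tamoxifen 7 days before collection. In them the Aire promoter drives a tamoxifen-dependent Cre recombinase, which switches on the red fluorescent protein (RFP) of the Ai14 reporter. RFP marks cells in which this Cre was active when tamoxifen was given, and their progeny. An RFP- cell may have expressed Aire at another time. Viable (DAPI-) CD45- EPCAM+ cells were sorted by RFP and by MHC class II into RFP- and RFP+ cells of an MHCIIhi and an MHCIIlo gate, with 4 replicates of 12 pooled thymi in each population, 16 libraries in all. No group lacked the Cre, the reporter or tamoxifen.

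Enterocytes, the absorptive cells of the gut lining, carry a brush border of actin-filled microvilli on the side that faces the lumen. Protocadherins at the microvillus tips join neighbouring microvilli, villin bundles the actin inside them, and lectins, transporters and receptors fill the membrane between. In the thymus, Aire drives expression of many such tissue-restricted genes in mature mTEC at high MHC class II, and some mTEC take on features of gut, tuft, microfold or skin cells. In bulk RNA a lower level can come from fewer cells of a type or from less RNA per cell, and these cannot be told apart here.

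Each of the 9 is a protein-coding gene, placed here on GRCm38 with the GENCODE M21 annotation. Lgals4 (ENSMUSG00000053964), which encodes galectin-4, a lectin of the brush border, lies on chromosome 7 at 28833854 to 28841708 on the + strand. Gpa33 (ENSMUSG00000000544), the immunoglobulin-like A33 antigen of the intestinal epithelium, lies on chromosome 1 at 166130238 to 166166510 on the + strand. Pigr (ENSMUSG00000026417), the receptor that carries polymeric antibodies across epithelia, lies on chromosome 1 at 130826684 to 130852249 on the + strand. Oit1 (ENSMUSG00000021749), a secreted gut protein of the FAM3 family, lies on chromosome 14 at 8348937 to 8378754 on the - strand. The protocadherin genes Cdhr5 (ENSMUSG00000025497) and Cdhr2 (ENSMUSG00000034918) lie on chromosome 7 at 141269083 to 141276786 on the - strand and on chromosome 13 at 54701461 to 54736662 on the + strand. Slc5a9 (ENSMUSG00000028544), a sodium-dependent sugar transporter gene, lies on chromosome 4 at 111875375 to 111902918 on the - strand. Vil1 (ENSMUSG00000026175), the villin gene, lies on chromosome 1 at 74409376 to 74435559 on the + strand. Cdh17 (ENSMUSG00000028217), which encodes the liver-intestine cadherin, lies on chromosome 4 at 11758147 to 11817895 on the + strand. Vil1 shares 49 exon bases with Usp37 on the opposite strand, and reads there could have been counted for either gene. Lgals4 has a close relative, Lgals6, with which it can share reads.

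The sequence just upstream of the start was compared because these genes shared their direction between labelled and unlabelled cells. RefSeq windows (GRCm38.p6) were at hand for 7 of the 9 genes, the others being Slc5a9 and Cdh17. Both strands of the 250 bases before the start were searched for short motifs, which were chosen after the sequences had been seen. The 4 genes with a match are shown for 240 of these bases, which end 11 bases before the start, with the matched letters in capitals. They are Gpa33 (chr1:166129971-166130210, + strand), Oit1 (chr14:8378774-8379013, - strand), Cdhr2 (chr13:54701213-54701452, + strand) and Vil1 (chr1:74409134-74409373, + strand).
Gpa33: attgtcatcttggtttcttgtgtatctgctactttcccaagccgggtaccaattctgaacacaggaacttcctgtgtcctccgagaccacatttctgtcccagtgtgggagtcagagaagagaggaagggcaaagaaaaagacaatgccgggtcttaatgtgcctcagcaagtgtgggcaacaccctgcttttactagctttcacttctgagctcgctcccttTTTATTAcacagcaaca
Oit1: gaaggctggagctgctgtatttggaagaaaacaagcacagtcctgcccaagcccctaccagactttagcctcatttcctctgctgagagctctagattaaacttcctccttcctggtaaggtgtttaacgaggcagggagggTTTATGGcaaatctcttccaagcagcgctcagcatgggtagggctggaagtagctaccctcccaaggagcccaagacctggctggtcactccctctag
Cdhr2: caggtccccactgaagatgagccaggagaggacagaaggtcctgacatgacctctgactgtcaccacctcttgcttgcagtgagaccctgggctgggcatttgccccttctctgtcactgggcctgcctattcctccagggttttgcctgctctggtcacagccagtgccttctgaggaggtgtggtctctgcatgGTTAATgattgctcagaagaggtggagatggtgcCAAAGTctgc
Vil1: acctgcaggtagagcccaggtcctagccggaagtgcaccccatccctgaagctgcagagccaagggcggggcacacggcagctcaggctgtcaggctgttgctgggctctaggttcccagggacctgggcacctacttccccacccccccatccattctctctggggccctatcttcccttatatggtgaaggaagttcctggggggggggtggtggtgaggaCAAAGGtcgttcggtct

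In Gpa33 the capitals mark TTTATTA, and in Oit1 a match to TTTATNG; both are forms of the site of the intestinal CDX factors and share the letters TTTAT. In Cdhr2 they mark GTTAAT, part of the site of the HNF1 factors, and CAAAGT, part of that of the HNF4 factors. In Vil1 they mark the other HNF4 form, CAAAGG. Each of these 5 motifs was found in 1 of the 7 windows. Over all 32851 windows of the same length, TTTATTA was present in 4.52%, TTTATNG in 9.81%, GTTAAT in 6.43%, CAAAGT in 12.6% and CAAAGG in 17.6%. The GATA motif AGATAA, the octamer ATGCAAAT and the TATA box TATAAA matched 0 of the 7 windows and 9.99%, 1.60% and 12.4% of all windows. No searched motif was thus shared by the 7 windows, and a match is only a match of letters.

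The libraries held 7.93 to 19.46 M counted reads. Those of RFP+ MHCIIlo came from 19400 to 20500 sorted cells, those of the other populations from 80500 to 164000. Mitochondrial ribosomal RNA made up 29.3 to 45.9% of the reads. Levels are CPM, read counts scaled to a fixed library total, after TMM normalisation. Differences are log2 values from 1 edgeR quasi-likelihood fit over 19617 genes, with p-values adjusted by the Benjamini-Hochberg method and called under 0.05. All 9 genes passed the filter on low counts, and their lowest count in any library was 125 reads (Cdhr2). The epithelial marker Epcam averaged 343 to 594 CPM over the 4 populations and the leukocyte marker Ptprc 21.1 to 60.0 CPM. H2-Aa, which encodes part of MHC class II, averaged 4703 and 5381 CPM in RFP- and RFP+ MHCIIhi, against 1319.7 and 961 CPM in RFP- and RFP+ MHCIIlo. Aire averaged 979 ± 56.1 and 587 ± 32.5 CPM (SD) in RFP- and RFP+ MHCIIhi. In RFP- and RFP+ MHCIIlo it averaged 37.9 ± 23.5 and 50.8 ± 25.4 CPM. The unlabelled MHCIIhi cells thus carried Aire transcripts. Its label difference was log2 -0.74 at high (adjusted p = 0.057) and 0.42 at low MHC class II (adjusted p = 0.31). At high several alternatives called it lower: only the 2 populations (2.2e-09), no filter (1.1e-07), limma-voom (0.0064) and the replicate block (0.02). The same held with other size factors (0.047), without RFP+ MHCIIlo replicates 1 and 4 together (0.0064), and without some single MHCIIlo libraries (0.0081 to 0.045). At low it was called higher with no filter (0.0082). It was also called higher there without RFP- MHCIIlo replicate 4 (log2 0.87, adjusted p = 0.029) or RFP+ MHCIIlo replicate 1 (log2 0.73, adjusted p = 0.021). Psmb11, the defining gene of cortical rather than medullary epithelium, averaged 194 CPM in RFP- MHCIIhi against 6.92 to 22.6 CPM elsewhere. RFP+ MHCIIlo replicates 1 and 4 stood apart from the rest on principal components in earlier results, and calls given here that change without both are named beside the result.

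All 9 genes had their lowest levels in unlabelled cells and their highest in labelled cells. From RFP- MHCIIhi to RFP+ MHCIIlo, their summed level went from between 225 and 236 CPM to between 1350.3 and 1522 CPM per library. RFP- MHCIIlo lay between, at 458 to 544 CPM, and RFP+ MHCIIhi at 1232 to 1349.9 CPM. In both gates no labelled library of any of the 9 genes fell within the range of the unlabelled ones. This held upward for 21.5% of all tested genes at low and 25% at high MHC class II, and 51.6% and 45% were called in either direction. These contrasts are how the 9 were chosen.

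**Figure D1:**
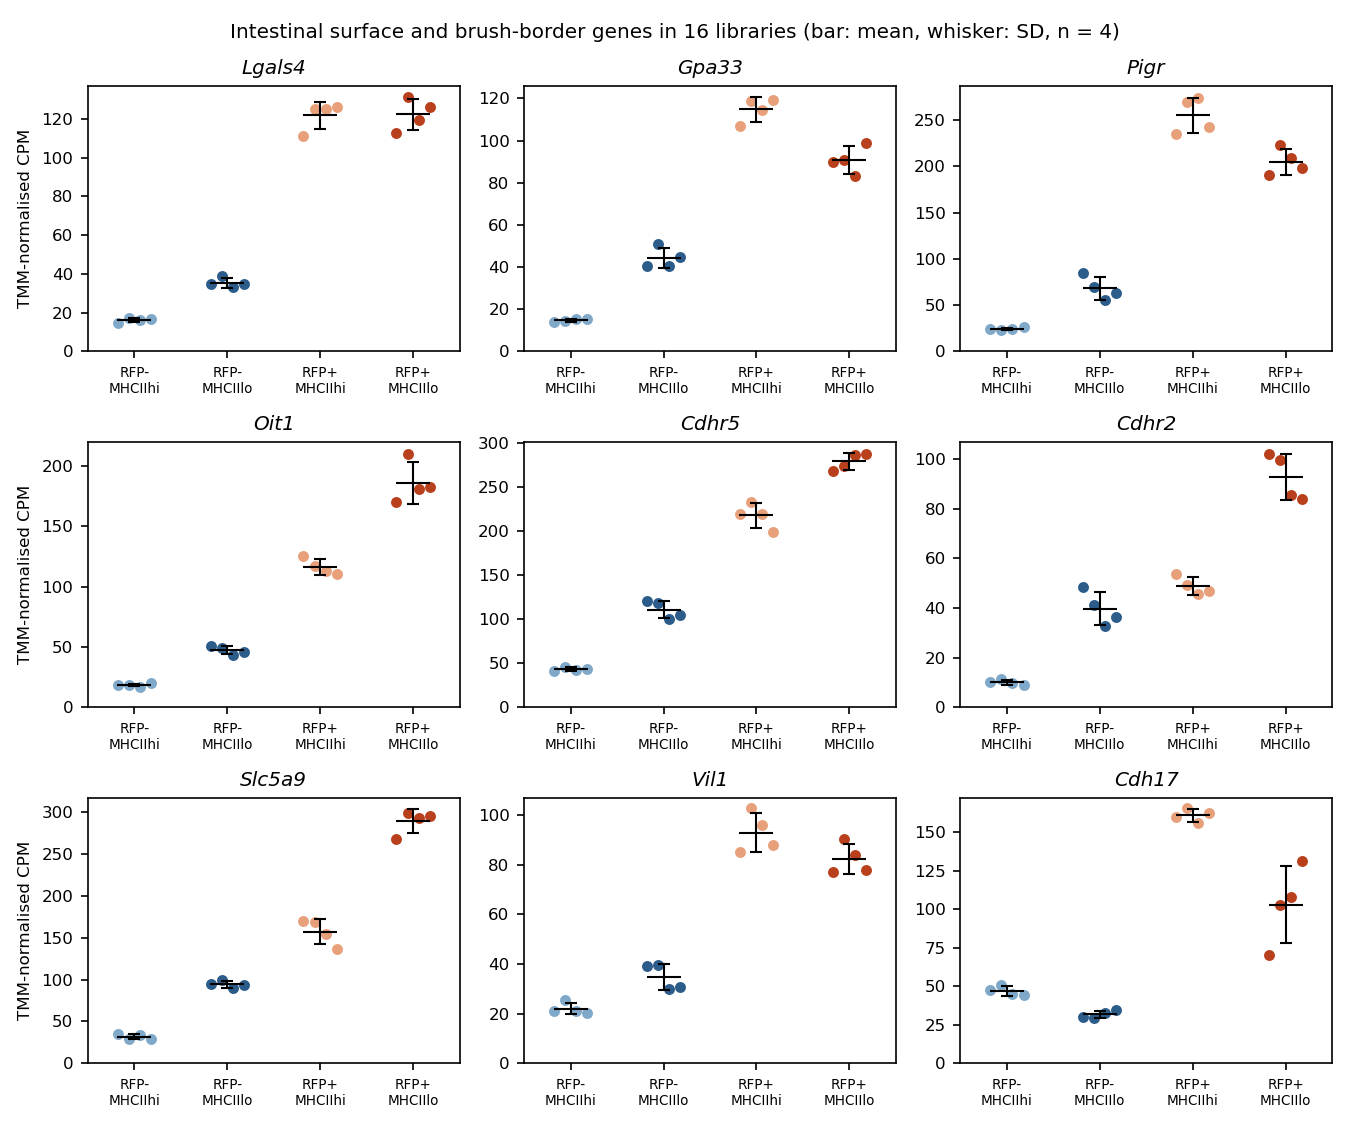
TMM-normalised CPM (linear axis from 0) of the 9 genes in each of the 16 libraries, by sorted population; points are libraries, the bar is the mean and the whisker the SD of 4. For each gene the RFP+ points lie above the RFP- points of the same gate, and Cdh17 is the gene whose RFP- MHCIIlo points (29.7 to 34.5 CPM) lie below its RFP- MHCIIhi points (44.3 to 50.9 CPM).

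Lgals4, the brush-border lectin gene, read 14.8, 17.1, 15.96 and 16.8 CPM in RFP- MHCIIhi replicates 1 to 4 and 111, 125, 125 and 126 CPM in RFP+ MHCIIhi. In the MHCIIlo gate it read 34.5, 39.1, 33.0 and 34.9 CPM without and 113, 131, 119.6 and 126 CPM with the label. The labelled libraries of the 2 gates overlapped, and the unlabelled ones did not. Lgals4 was 7.54-fold higher with the label at high MHC class II (log2 2.92, SE 0.085) and 3.46-fold at low (log2 1.79, SE 0.081).

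Gpa33 read 14.1, 14.3, 15.2 and 15.6 CPM in RFP- MHCIIhi against 107, 119, 115 and 119 CPM in RFP+ MHCIIhi. At low MHC class II the values were 40.6, 51.0, 40.7 and 44.8 CPM unlabelled and 90.0, 90.7, 83.0 and 99.0 CPM labelled. The highest population was RFP+ MHCIIhi, and no neighbouring populations overlapped. The label difference was 7.77-fold at high (log2 2.96, SE 0.089) and 2.05-fold at low MHC class II (log2 1.03, SE 0.084), the smallest of the 9 genes at low MHC class II.

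Pigr, the antibody transporter, read 24.4, 23.6, 24.2 and 25.8 CPM in RFP- MHCIIhi against 235, 269, 274 and 243 CPM in RFP+ MHCIIhi. Its MHCIIlo values were 84.4, 69.4, 55.5 and 62.5 CPM without and 190.3, 223, 209 and 198 CPM with the label. The populations stood in the same order as for Gpa33, without overlap between neighbours. At high MHC class II Pigr had the largest label difference of the 9 genes, 10.4-fold (log2 3.38, SE 0.11), against 3.02-fold at low (log2 1.59, SE 0.10).

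Oit1, whose product is secreted, read 18.1, 18.8, 17.2 and 19.8 CPM in RFP- MHCIIhi against 125, 117, 113 and 111 CPM in RFP+ MHCIIhi. In the MHCIIlo gate it read 51.0, 49.0, 43.6 and 45.7 CPM unlabelled and 170.4, 210.4, 181 and 182 CPM labelled. Here RFP+ MHCIIlo was the highest population, and again no neighbours overlapped. The label difference was 6.29-fold at high (log2 2.65, SE 0.086) and 3.93-fold at low MHC class II (log2 1.98, SE 0.083), the largest of the 9 at low MHC class II.

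The protocadherin pair of the microvillus tip differed in level and in order. Without the label Cdhr5 read 41.6, 45.8, 42.8 and 44.1 CPM at high and 121, 119, 100.3 and 105 CPM at low MHC class II. With it the values were 219, 234, 219.7 and 199.6 CPM at high and 269, 275, 287 and 288 CPM at low. The 4 populations rose in that order with no overlap. Cdhr2 read 10.2, 11.4, 9.59 and 8.84 CPM in RFP- MHCIIhi against 48.6, 41.1, 32.9 and 36.4 CPM in RFP- MHCIIlo. In RFP+ MHCIIhi it read 53.5, 49.1, 45.4 and 46.7 CPM, which overlapped with RFP- MHCIIlo, and in RFP+ MHCIIlo 102, 99.3, 85.6 and 84.0 CPM. The label differences of the pair were alike in size: at high MHC class II log2 2.32 (SE 0.080) for Cdhr5 and 2.28 (SE 0.11) for Cdhr2, at low 1.33 (SE 0.077) and 1.22 (SE 0.11).

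Slc5a9, the sugar transporter gene, read 34.6, 29.2, 33.8 and 29.1 CPM in RFP- MHCIIhi against 94.5, 99.6, 89.7 and 93.8 CPM in RFP- MHCIIlo. With the label it read 169.6, 168, 155 and 136 CPM at high and 268, 299, 293 and 295 CPM at low MHC class II. The populations stood in the order of Cdhr5 without overlap. The label difference was 4.97-fold at high (log2 2.31, SE 0.086) and 3.06-fold at low MHC class II (log2 1.61, SE 0.083).

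Vil1, the actin bundler, read 21.2, 25.4, 21.1 and 20.4 CPM in RFP- MHCIIhi against 39.3, 39.5, 29.9 and 30.7 CPM in RFP- MHCIIlo. With the label it read 84.9, 103, 95.8 and 88.1 CPM at high and 77.1, 90.3, 83.8 and 77.7 CPM at low MHC class II, and these 2 ranges overlapped. The label difference was 4.22-fold at high (log2 2.08, SE 0.10) and 2.36-fold at low MHC class II (log2 1.24, SE 0.10). Vil1 is also made by tuft cells, whose marker genes are given further on.

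Cdh17, the cadherin, had an order of its own. It read 47.6, 50.9, 45.0 and 44.3 CPM in RFP- MHCIIhi but 30.2, 29.7, 32.6 and 34.5 CPM in RFP- MHCIIlo. With the label it read 159.9, 165, 156 and 163 CPM at high and 70.2, 103, 108 and 131 CPM at low MHC class II. No neighbouring populations overlapped, and RFP+ MHCIIlo replicates 1 and 4 were its lowest and highest library. Without these 2 libraries the value in that population lay between 103 and 108 CPM. Cdh17 was the gene with almost the same label difference in both gates, 3.43-fold at high (log2 1.78, SE 0.12) and 3.25-fold at low MHC class II (log2 1.70, SE 0.12).

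For each of the 9 genes the estimated label difference was smaller at low than at high MHC class II, for Cdh17 by less than its error. The median was log2 1.59 at low and 2.32 at high MHC class II, beside 0.07 and -0.02 over all tested genes. Log2 differences of the 9 lay above those of 83.0 to 94.5% of all tested genes at low and 97.3 to 99.9% at high MHC class II. Low minus high, the gap between the label differences was widest for Gpa33 (log2 -1.92, SE 0.12) and Pigr (-1.78, SE 0.14). It was narrowest for Cdh17 (-0.08, SE 0.17), where alternative settings gave -0.22 to 0.07. The median gap was -0.99. Over all genes the gap was called positive for 17.5% and negative for 16.6% (34.1% in all), and since both label differences chose the 9 genes, their own gaps are not tested.

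**Figure D2:**
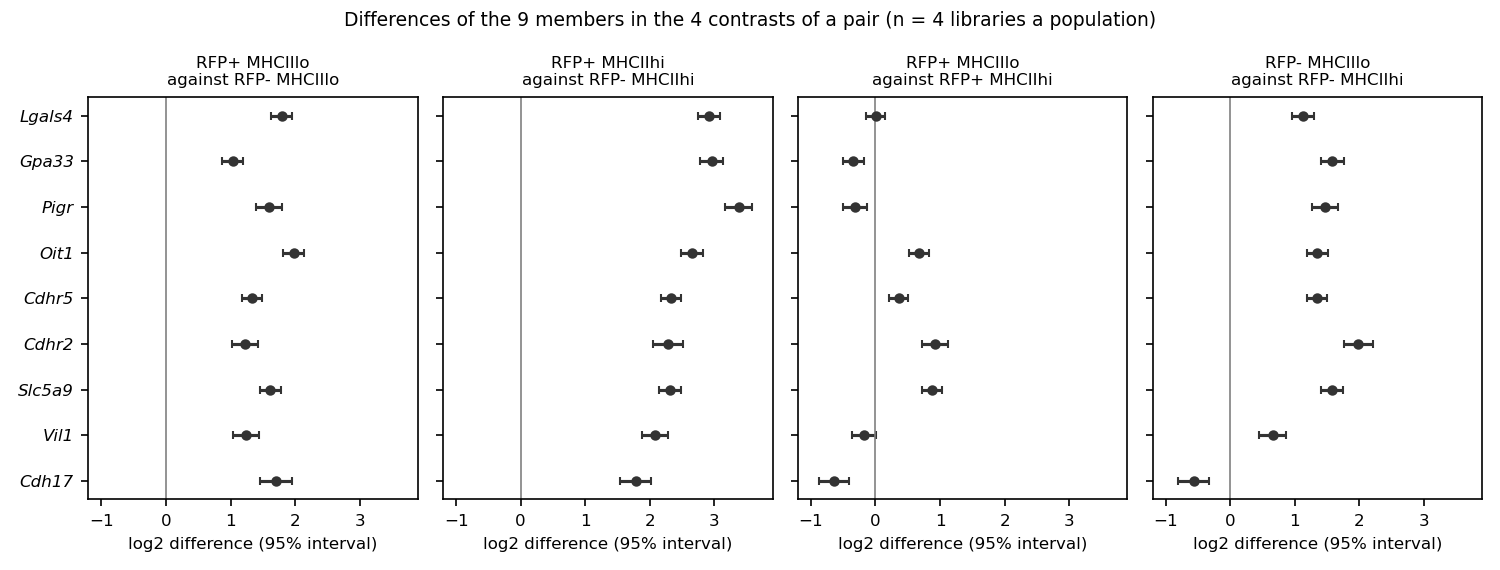
Log2 difference (points) with its 95% interval (whiskers, from the SE) of the 9 genes in 4 contrasts of a pair of populations, 4 libraries in each. In both label contrasts (left) all points lie right of 0, from 1.03 to 3.38; between the gates (right) Cdh17 lies left of 0 both with (-0.64) and without (-0.56) the label.

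The first tested question was how the 9 genes differed by MHC class II among labelled cells. Among RFP+ cells 4 genes rose and 3 fell from high to low MHC class II, beside 27.5% of all tested genes called higher and 28.1% lower (55.6% in all). The libraries of 7 of the 9 did not overlap, 4 upward and 3 downward, against 22.5% and 24.5% of all genes. These RFP+ libraries also entered the label differences that chose the 9, so the choice can shift these values. Cdhr2 rose by log2 0.93 (SE 0.10, adjusted p = 6.1e-08), Slc5a9 by 0.88 (SE 0.081, adjusted p = 3.3e-09), Oit1 by 0.67 (SE 0.078, adjusted p = 1.3e-07) and Cdhr5 by 0.36 (SE 0.075, adjusted p = 0.00028). Both tip-link protocadherins were thus among the genes that rose.

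Cdh17 fell by 0.64 on the log2 scale (SE 0.12, adjusted p = 5.9e-05), Gpa33 by 0.34 (SE 0.080, adjusted p = 0.001) and Pigr by 0.32 (SE 0.096, adjusted p = 0.0075). The Pigr call was lost without RFP+ MHCIIlo replicates 1 and 4 together (log2 -0.25, adjusted p = 0.069). The intervals of the other 2 genes included 0: Lgals4 differed by log2 0.0068 (95% interval -0.14 to 0.16, adjusted p = 0.95) and Vil1 by -0.18 (-0.37 to 0.01, adjusted p = 0.13). For Lgals4 the sign depended on the setting. The median of the 9 was log2 0.0068, beside 0.0066 over all tested genes.

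Among unlabelled cells most of the 9 genes moved in 1 direction between the gates. These libraries also entered the label differences. The choice favoured genes low in unlabelled cells, RFP- MHCIIhi among them, so it can shift these values. The calls below are no independent support. From RFP- MHCIIhi to RFP- MHCIIlo 8 of the 9 genes rose and 1 fell, beside 33.5% of all tested genes called higher and 35.6% lower (69.1% in all). None of the 9 overlapped between the 2 populations, against 31.2% of all genes apart upward and 34.1% downward, and each call held under all 24 alternatives that were run. Cdhr2 rose most, 3.96-fold (log2 1.99, SE 0.12, adjusted p = 5.0e-13), followed by Gpa33 (log2 1.58, SE 0.089, adjusted p = 2.5e-13) and Slc5a9 (log2 1.58, SE 0.086, adjusted p = 1.4e-13). Pigr, Oit1, Cdhr5 and Lgals4 rose by log2 1.47, 1.35, 1.35 and 1.13, with adjusted p of 4.0e-11 or less. Vil1 rose by the least, 1.58-fold (log2 0.66, SE 0.11, adjusted p = 7.0e-06). Cdh17 fell by 0.56 on the log2 scale (SE 0.12, adjusted p = 0.00031). The median of the 9 was log2 1.35, beside -0.004 over all tested genes.

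Gpa33 and Pigr therefore moved in opposite directions between the gates, higher at low MHC class II without the label and lower with it, the latter call for Pigr resting on RFP+ MHCIIlo replicates 1 and 4. Cdh17 fell with lower MHC class II in both. Cdhr2, Slc5a9, Oit1 and Cdhr5 rose in both.

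**Figure D3:**
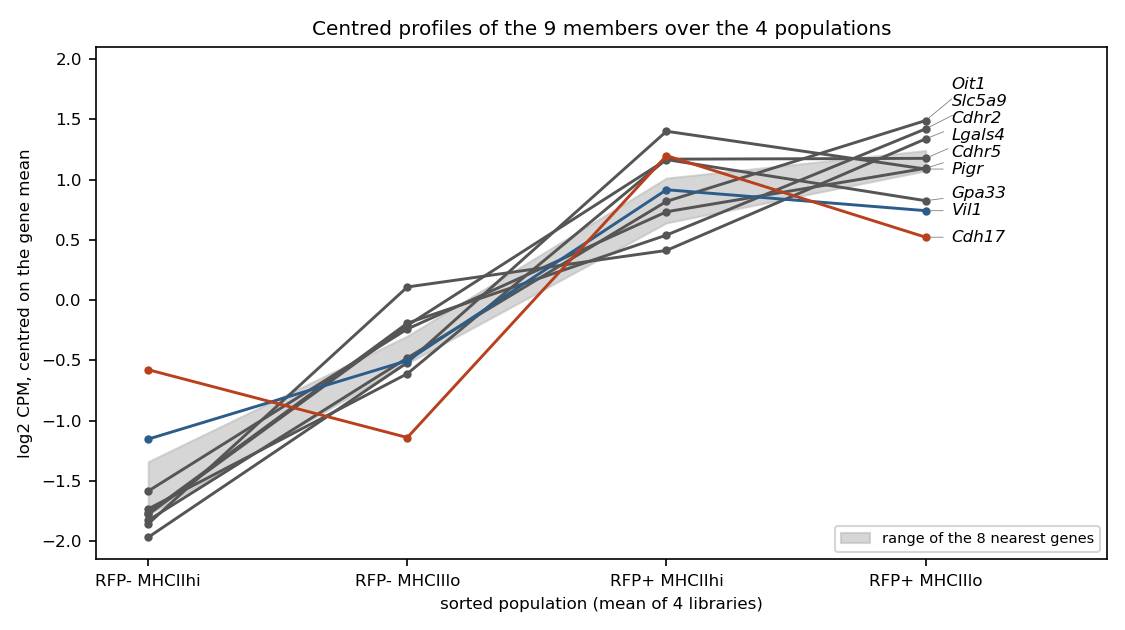
Mean log2 CPM of each of the 9 genes in the 4 populations (4 libraries each), centred on the gene's own mean; the grey band spans the 8 other genes with the nearest profiles, and Vil1 (blue) and Cdh17 (red) are drawn in colour. Cdh17 is the line that falls from RFP- MHCIIhi to RFP- MHCIIlo, the log2 difference being -0.56, while the other 8 rise.

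Per kilobase of merged exon, levels can be set side by side between genes. In RFP+ MHCIIlo, Oit1 (119 ± 10.9 CPM per kb, SD, n = 4) and Cdhr5 (102 ± 3.46) stood highest. Slc5a9 (55.7 ± 2.71), Lgals4 (52.9 ± 3.45) and Pigr (50.9 ± 3.52) followed, then Gpa33 (33.1 ± 2.39). Vil1, Cdh17 and Cdhr2 were lowest, at 23.2 ± 1.74, 23.0 ± 5.61 and 22.5 ± 2.25 CPM per kb. On this scale Cdhr5 stood well above its partner Cdhr2. In RFP- MHCIIhi the 9 genes spanned 2.42 (Cdhr2) to 15.9 CPM per kb (Cdhr5).

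The spread between replicates was uneven across genes. Cdh17 varied most within a population, with a coefficient of variation of 24.4% in RFP+ MHCIIlo against 2.47% in RFP+ MHCIIhi. Pigr, Cdhr2 and Vil1 varied by 15.2 to 18.1% in RFP- MHCIIlo, where replicates 1 and 2 were higher than 3 and 4 for each of them. In RFP+ MHCIIlo replicate 1, 8 of the 9 genes were below their population mean on the log2 scale, Cdhr2 being the exception.

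The cytoplasmic partners of the protocadherin tip link were examined next. Ush1c and Anks4b encode scaffold proteins that bind the tails of Cdhr2 and Cdhr5, Myo7b the motor that carries the complex to the tip, and Calml4 a light chain of that motor. All 4 were higher with the label at low MHC class II, beside 28.9% of all tested genes called higher and 22.7% lower. Anks4b went from 6.69 ± 1.08 to 23.4 ± 3.64 CPM (log2 1.80, SE 0.16, adjusted p = 1.4e-09). Ush1c went from 3.21 ± 0.73 to 9 ± 2.83 CPM (log2 1.49, SE 0.22, adjusted p = 3.8e-06). Calml4 and Myo7b rose by log2 1.25 (SE 0.087, adjusted p = 2.9e-11) and 1.03 (SE 0.12, adjusted p = 1.3e-07).

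At high MHC class II, where 23.8% of all tested genes were called higher and 21.2% lower with the label, 3 of the 4 partners rose. Anks4b rose by log2 2.32 (SE 0.14, adjusted p = 4.7e-12), Calml4 by 1.63 (SE 0.087, adjusted p = 5.2e-13) and Myo7b by 0.95 (SE 0.12, adjusted p = 7.0e-07). Ush1c did not pass the test (log2 -0.37, SE 0.18, adjusted p = 0.091), but 4 alternatives called it lower: limma-voom (adjusted p = 0.025), only the 2 populations (0.0069), and leaving out RFP+ MHCIIlo replicate 1 (0.041) or replicates 1 and 4 together (0.029). The label difference of Ush1c differed between the gates (low minus high log2 1.86, SE 0.28, adjusted p = 1.6e-05), while for Myo7b no difference was found (0.08, SE 0.17, adjusted p = 0.76).

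Between the gates the partners did not follow the protocadherins as a group. Myo7b and Calml4, like Cdhr2 and Cdhr5, were higher at low MHC class II with the label (log2 0.89 and 0.32, adjusted p = 6.7e-07 and 0.0021) and without it (0.82 and 0.70, adjusted p = 3.9e-06 and 3.3e-07). The Calml4 call with the label was lost without RFP+ MHCIIlo replicates 1 and 4 together (log2 0.23, adjusted p = 0.055). Anks4b fell with the label (log2 -0.95, adjusted p = 2.9e-06). Without the label Anks4b fell by 0.43 on the log2 scale (adjusted p = 0.022), a call that ended on leaving out RFP- MHCIIhi replicate 2 (-0.25, adjusted p = 0.14) or RFP- MHCIIlo replicate 4 (-0.33, adjusted p = 0.091). Among unlabelled cells Ush1c was lower in MHCIIlo than in MHCIIhi (log2 -2.23, SE 0.21, adjusted p = 1.4e-09). Among labelled cells it was at log2 -0.37 (SE 0.19, adjusted p = 0.095). It was called lower there with no filter (adjusted p = 0.036) and without RFP+ MHCIIhi replicate 2 (0.047). The same held without RFP+ MHCIIlo replicate 2 (0.042) or replicate 4 (0.023).

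Other enterocyte genes were counted in 6 lists, of which 90 of 93 genes could be tested. At low MHC class II 67 of them were higher and 6 lower with the label (median log2 1.23), and at high 56 were higher and 5 lower (median 0.88). Over all tested genes 28.9% were called higher and 22.7% lower at low, and 23.8% and 21.2% at high. In RFP+ MHCIIlo against RFP+ MHCIIhi 24 were higher and 37 lower (median -0.24), beside 27.5% and 28.1% of all tested genes. In RFP- MHCIIlo against RFP- MHCIIhi 28 were higher and 48 lower (median -0.50), beside 33.5% and 35.6% of all tested genes. In that contrast 8 of the 9 intestinal genes of this account rose. The number lower with the label at high MHC class II was 8 without RFP+ MHCIIlo replicate 4 and 9 without replicates 1 and 4 together. The same shares of all tested genes stand beside the counts of each list and marker set below.

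**Figure D4:**
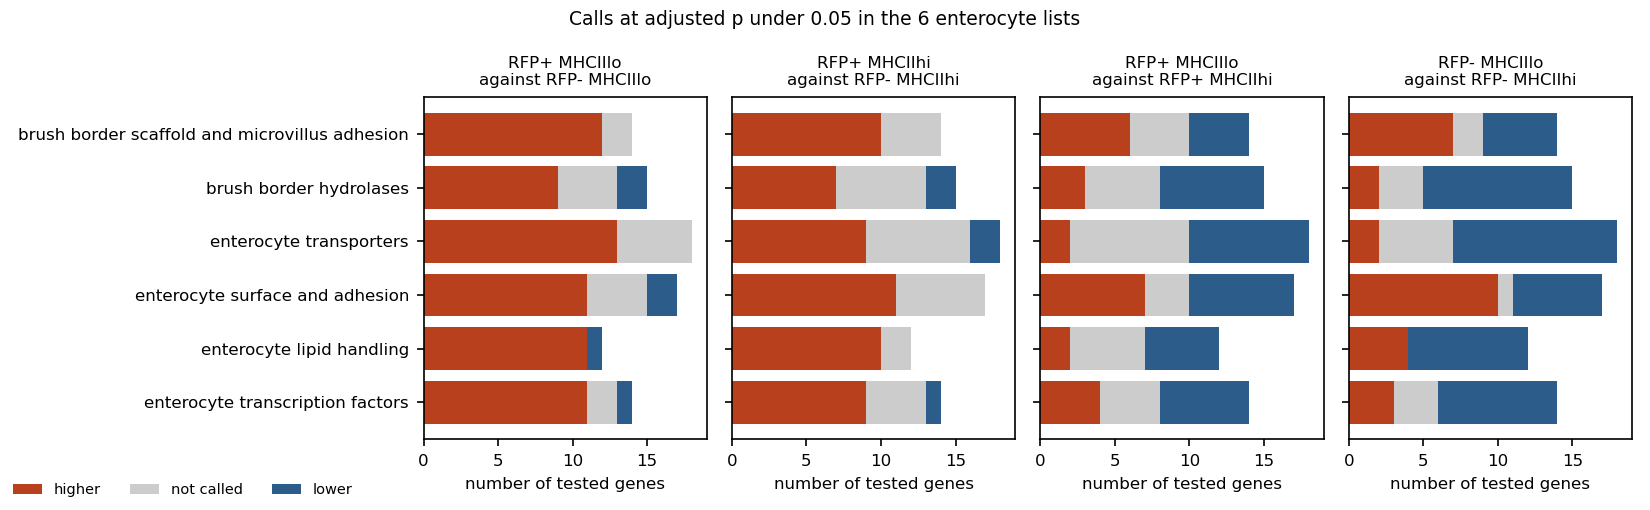
Number of tested genes (x axis) of 6 enterocyte lists (rows) called higher (red), lower (blue) or not called (grey) at an adjusted p under 0.05 in 4 contrasts. Red bars fill most of both label contrasts (67 and 56 of 90 genes), and blue bars take more of the gate contrasts (37 and 48 of 90).

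The scaffold list, with the tip-link partners and the proteins that organise the microvillus core, had 12 of 14 genes higher with the label at low MHC class II and 2 not called (median log2 0.97). At high it had 10 higher and 4 not called (median 0.96). Myo1a, a motor that ties the core to the membrane, rose from 5.62 ± 1.13 to 21.3 ± 4.57 CPM at low MHC class II (log2 1.90, SE 0.16, adjusted p = 4.5e-10). Ezr, the linker ezrin, was at 224 ± 10.8 and 239 ± 8.31 CPM without and with the label (log2 0.09, adjusted p = 0.27).

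Brush-border hydrolases, the enzymes that finish digestion, had 9 of 15 higher and 2 lower at low MHC class II (median 0.98), and 7 higher and 2 lower at high (median 0.07). Sis, the sucrase-isomaltase gene, went from 12.2 to 96.1 CPM with the label at low (log2 2.96, SE 0.18, adjusted p = 2.0e-12) and from 16.7 to 102 CPM at high MHC class II (log2 2.61, SE 0.17, adjusted p = 9.2e-12). The peptidase gene Anpep was lower with the label in both gates (log2 -0.60 and -0.42, adjusted p = 7.3e-06 and 0.00061). Enpep, another peptidase gene, was lower at high MHC class II (log2 -1.43, SE 0.13, adjusted p = 4.8e-09). At low MHC class II its log2 difference was -0.44 (adjusted p = 0.014), a call that ended on leaving out RFP+ MHCIIlo replicate 1 (-0.36, adjusted p = 0.051) or replicates 1 and 4 together (-0.31, adjusted p = 0.15).

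Transporters, the list nearest to Slc5a9 in function, had 13 of 18 higher and 5 not called at low MHC class II (median 1.64), and 9 higher and 2 lower at high (median 0.54). Slc5a1, the main intestinal glucose transporter and a relative of Slc5a9, went from 4.62 ± 1.23 to 35.5 ± 3.05 CPM with the label at low MHC class II (log2 2.95, SE 0.15, adjusted p = 1.5e-13). Without the label Slc5a1 was lower in MHCIIlo than in MHCIIhi (log2 -0.78, adjusted p = 0.00017), where Slc5a9 was higher. From RFP- MHCIIhi to RFP- MHCIIlo 2 transporters rose and 11 fell (median -1.44).

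Other surface and adhesion genes had 11 of 17 higher and 2 lower at low MHC class II (median 1.22), and 11 higher and 6 not called at high (median 0.69). Muc13, a membrane mucin, followed the 9 genes closely, at 24.2, 69.8, 185 and 257 CPM in RFP- MHCIIhi, RFP- MHCIIlo, RFP+ MHCIIhi and RFP+ MHCIIlo. Its label difference was log2 1.88 at low (SE 0.091, adjusted p = 5.8e-14) and 2.93 at high MHC class II (SE 0.096, adjusted p = 1.4e-16), and it too was smaller at low (gap -1.05, SE 0.13, adjusted p = 9.0e-07). Fcgrt, the other antibody-carrying receptor beside Pigr, was lower with the label at low (log2 -1.29, adjusted p = 1.2e-06) and higher at high MHC class II (log2 1.44, adjusted p = 3.1e-07).

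Lipid-handling genes had 11 of 12 higher and 1 lower at low MHC class II (median 1.96), and 10 higher and 2 not called at high (median 1.12). Apoc3 and Apob, apolipoprotein genes of gut and liver, rose by log2 2.93 (SE 0.24, adjusted p = 6.2e-10) and 2.62 (SE 0.18, adjusted p = 2.2e-11) at low MHC class II. The list includes Dgat1, whose call at low (log2 0.44, adjusted p = 0.026) was lost without RFP- MHCIIlo replicate 1 or 4 or RFP+ MHCIIlo replicate 2 (adjusted p = 0.07, 0.074 and 0.079). Without RFP+ MHCIIlo replicate 4 it was log2 0.22 (adjusted p = 0.21). The member lower at low MHC class II was the fatty acid receptor gene Cd36 (log2 -1.19, SE 0.27, adjusted p = 0.00067).

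Transcription factors of the enterocyte had 11 of 14 higher and 1 lower with the label at low MHC class II (median 1.08), and 9 higher and 1 lower at high (median 0.78). Hnf4g rose from 19.9 ± 1.18 to 42.8 ± 8.83 CPM at low (log2 1.11, SE 0.12, adjusted p = 3.8e-08) and from 17.6 ± 1.52 to 41.8 ± 4.13 CPM at high MHC class II (log2 1.24, SE 0.11, adjusted p = 4.8e-09). Hnf4a rose in both gates as well (log2 1.83 and 0.66, adjusted p = 3.8e-09 and 0.0012). Cdx1 was higher with the label at low MHC class II (log2 0.81, SE 0.12, adjusted p = 3.3e-06) and fell from 189 CPM in RFP- MHCIIhi to 35.0 CPM in RFP- MHCIIlo (log2 -2.43, adjusted p = 1.7e-14). With the label at high MHC class II it was at log2 -0.26 (adjusted p = 0.053), and 12 alternatives called it lower, among them DESeq2 (adjusted p = 0.03), limma-voom (0.012), only the 2 populations (0.0028), the replicate block (0.027), and leaving out RFP+ MHCIIlo replicates 1 and 4 together (0.036). Cdx2 was at 1.28 to 2.65 CPM and passed neither label test (adjusted p = 0.21 at low and 0.057 at high MHC class II). At high MHC class II 7 alternatives called it lower (adjusted p = 0.0069 to 0.046), among them limma-voom, only the 2 populations and leaving out RFP+ MHCIIlo replicates 1 and 4 together, and at low it was called higher without RFP- MHCIIlo replicate 2 (log2 1.01, adjusted p = 0.041).

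**Figure D5:**
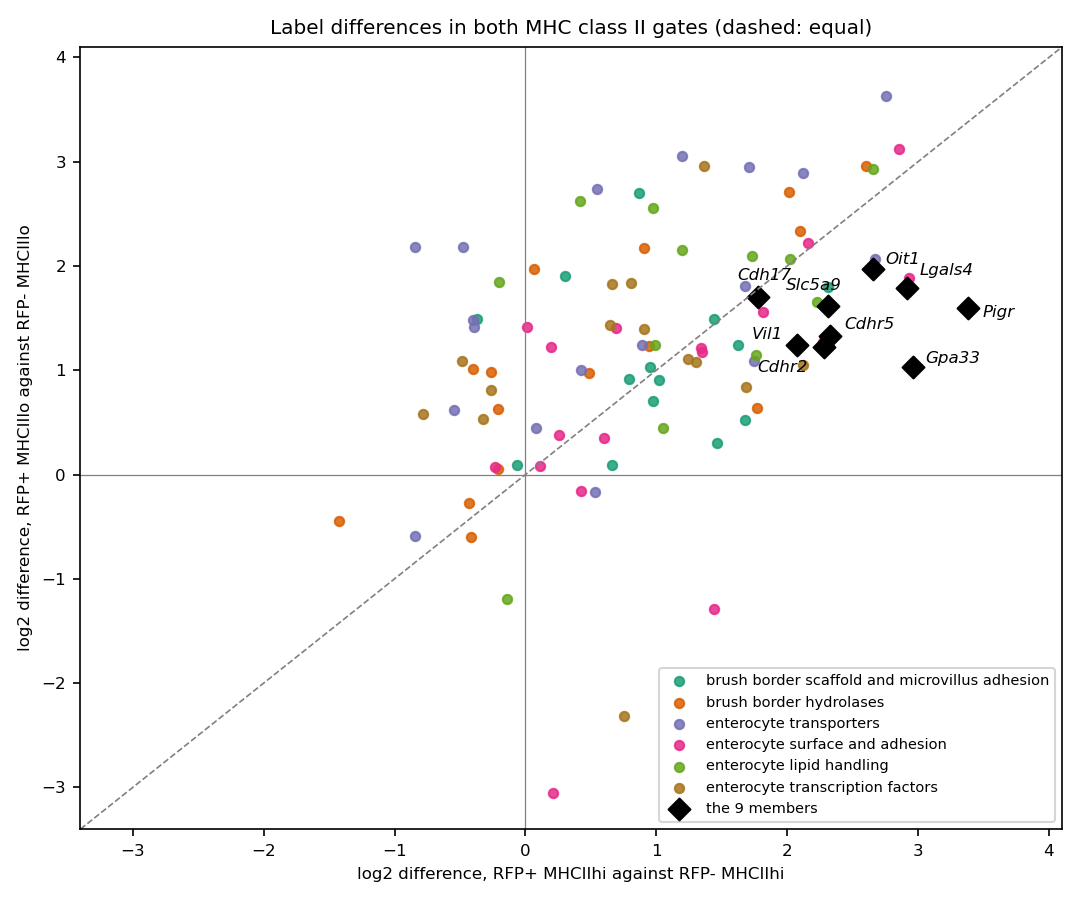
Log2 difference with the label at high (x axis) against low MHC class II (y axis); dots are the 90 tested genes of the 6 enterocyte lists, black diamonds the 9 genes, and the dashed line marks equal differences. All 9 diamonds lie at or below the dashed line, Cdh17 next to it (1.78 and 1.70) and Gpa33 and Pigr farthest from it, while the dots lie on both sides.

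Marker genes of other cell types moved with some of the same groups, and their part in the differences above was not tested. All 14 listed tuft cell genes were called higher in both label contrasts and in both gate contrasts. Their summed level was 137 to 165 CPM in RFP- and 589 to 763 CPM in RFP+ cells of the MHCIIhi gate, and 1623 to 2602 and 3521 to 5169 CPM in those of the MHCIIlo gate. RFP- MHCIIlo thus exceeded RFP+ MHCIIhi in this sum, the reverse of the 9 intestinal genes, whose summed level was lower in RFP- MHCIIlo. The label difference of Pou2f3, the defining tuft cell factor, was log2 1.36 at low and 2.25 at high MHC class II.

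Of 9 microfold cell genes, 8 were higher and 1 lower with the label at low and 7 higher and 1 lower at high MHC class II, with sums of 1291 to 1393, 1921 to 1977, 2314 to 2442 and 3348 to 3737 CPM in the same order of populations. Hepatocyte genes summed to 115 to 125, 201 to 224, 15.9 to 20.6 and 112 to 166 CPM in that order, with Serpina1a at 0 in both MHCIIlo populations. Of the 7 goblet cell genes, 6 were called higher and 1 lower with the label at low MHC class II (median log2 2.20). At high 4 were called higher and 3 were not called. Their sums, in which the most abundant genes weigh most, were 1291 to 1739, 2926 to 3178, 1700.1 to 2113 and 1413 to 1728 CPM. Keratinocyte genes, all 10 of which rose in both label contrasts, summed to 134 to 176, 1047 to 1440, 385 to 562 and 2736 to 3890 CPM. By this sum the populations stood in the same order as by the summed level of the 9 intestinal genes. Ciliated cell genes (9 of 9 higher with the label at low MHC class II) summed to 158 to 173, 203 to 232, 164 to 240.01 and 448 to 535 CPM. Of the 6 tested genes of basal or immature mTEC, all were lower with the label at low MHC class II (median log2 -1.61) and all were higher in RFP- MHCIIlo than in RFP- MHCIIhi (median 2.31). Their sums were 2841 to 3598 CPM in RFP- MHCIIlo and 731 to 1367 CPM elsewhere, with Ccl21a at 0 outside RFP- MHCIIlo. All 8 genes of mature mTEC were lower at low MHC class II with and without the label, with sums of 13436 to 15189 CPM in the MHCIIhi and 2318 to 5410 CPM in the MHCIIlo gate. Myeloid genes summed to 417 to 505, 637 to 649.7, 108 to 143 and 186 to 266 CPM, and cortical epithelial genes to 1556 to 2407, 787 to 1034, 245 to 332.9 and 157 to 266 CPM, in the order above. Thymocyte genes were at 335 to 759 CPM in RFP- MHCIIhi and at 43.7 to 157 CPM elsewhere. Mesenchymal genes were at 426 to 967 CPM in RFP- MHCIIlo and at 53.9 to 171 CPM elsewhere.

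Of 13163 other expressed genes, those whose profile over the 16 libraries lay nearest to the mean profile of the 9 were Cyp2a5, Aadac, Tmc5, Bbox1, Atp10b, Mlph, Sgpp2 and Wfdc17. The measure was the root mean square distance of centred log2 CPM, which ran from 0.17 for Cyp2a5 to 0.21 for Wfdc17. Of the 9 themselves, Cdhr5 lay at 0.14, Lgals4 at 0.19, Cdhr2 at 0.43 and Cdh17 at 0.71. Cyp2a5, a cytochrome P450 gene that can share reads with its close relatives, was at 33.3 ± 2.81 CPM in RFP- MHCIIhi, 87.1 ± 14.4 in RFP- MHCIIlo, 202 ± 8.21 in RFP+ MHCIIhi and 225 ± 33.1 in RFP+ MHCIIlo. Bbox1, an enzyme gene of carnitine synthesis, was at 5.19 ± 0.86, 13.2 ± 1.24, 36.0 ± 3.02 and 41.2 ± 4.38 CPM in the same order. None of the 8 was on the enterocyte lists, and the order of the populations was that of Cdhr5.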

How the data were processed

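RNA of 16 samples from 4 sorted mTEC populations was, per the labels' protocols, selected for poly(A), amplified with NuGen Ovation V2 and sequenced from Nextera XT libraries. The authors deposited raw read counts per Ensembl gene; STAR, DESeq2 and the GRCm38 build are named in the submitters' processing notes, while for versions, counting tool, strand setting and annotation release the sources used here give nothing. Of 43432 genes, 42548 had a symbol in GENCODE M21. Labels call the replicates biological, each of 12 pooled thymi.

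The deposited counts were analysed with edgeR 4.0.16 in R 4.3.3 (filterByExpr with a minimum count of 10 and a minimum total of 15, TMM, quasi-likelihood test, Benjamini-Hochberg adjustment over 19617 genes, threshold 0.05). All 16 libraries entered 1 fit with a mean per population and no replicate block; log2 values used a prior count of 2. SE is the absolute log2 difference divided by the square root of F, and intervals are normal 95% intervals from it. The procedure was tested on simulated data. Depth was 7.93 to 19.46 M reads, and no 2 replicates matched within sampling noise (chi-square per degree of freedom 3.18 to 36.8).

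The 9 genes and all lists were chosen with earlier results of these data known. Named genes were the 9, the 4 tip-link partners, from each list the 3 highest and 2 lowest label differences in MHCIIlo among genes of at least 1 CPM, 4 transcription factors, the 8 nearest profiles (at least 5 CPM) and the first gene of each marker list, of which 1 is not reported here. Alternatives, 24 in all, were other size factors, limma-voom (limma 3.58.1), DESeq2 1.42.0, no filter, a replicate block, 2 populations only, no mitochondrially encoded genes, each library left out, and, chosen after seeing the data, RFP+ MHCIIlo replicates 1 and 4 left out together.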

Additional observations from a re-analysis of the deposited data

Results flagged for a closer look

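Of 276 sets of 4 replicate values that were screened, 15 (5.43%) held 1 library far from the other 3, and chance alone gives about 1 in 20. Of the 9 genes this touched Lgals4 and Vil1. Lgals4 was at 111 CPM in RFP+ MHCIIhi replicate 1, against 125 to 126 CPM in the other 3 libraries. Vil1 was at 25.4 CPM in RFP- MHCIIhi replicate 2, against 20.4 to 21.2 CPM in the other 3 libraries. The other flags were in comparison genes. Myo1a was at 3.93 CPM in RFP- MHCIIlo replicate 1 (6.02 to 6.28 in the others) and Anks4b was at 12.4 CPM in RFP- MHCIIhi replicate 2 (7.58 to 8.07 in the others). Myo1d was at 88.8 CPM in RFP- MHCIIlo replicate 4 (125 to 132 in the others) and Sis was at 7.87 CPM in RFP- MHCIIlo replicate 1 (13.5 to 13.8 in the others). Enpep was at 19.6 CPM in RFP+ MHCIIhi replicate 4 (15.7 to 15.9 in the others) and Apoa1 was at 84.4 CPM in RFP+ MHCIIlo replicate 1 (108 to 113 in the others). Dgat1 was at 25.1 CPM in RFP+ MHCIIhi replicate 3 (21.6 to 22.0 in the others) and Gata6 was at 0.516 CPM in RFP- MHCIIhi replicate 2 (0.861 to 0.921 in the others). Hnf4g was at 56.1 CPM in RFP+ MHCIIlo replicate 4 (37.8 to 39.4 in the others) and Cdx1 was at 47.2 CPM in RFP- MHCIIlo replicate 4 (29.8 to 31.9 in the others). Ptprc was at 45.3 CPM in RFP+ MHCIIlo replicate 3 (32.3 to 34.0 in the others) and Krt5 was at 311 CPM in RFP+ MHCIIhi replicate 1 (252 to 258 in the others). Psmb11 was at 39.8 CPM in RFP+ MHCIIhi replicate 4 (15.7 to 18.96 in the others). 

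In 32 comparison genes the label difference itself differed between the gates in the edgeR quasi-likelihood test (adjusted p under 0.05, low minus high MHC class II, 4 libraries a population). The genes screened for this were the named genes apart from the 9, the 8 nearest profiles and the 1 not reported here. Over all tested genes the gap between the label differences was called for 34.1%. The screened genes were picked, so their count cannot be set against that share. The comparison genes named as the 3 highest or 2 lowest of a list were chosen by their label difference in MHCIIlo. That difference enters the gap, so the choice itself can widen it, and their calls are no independent support. On the log2 scale, with the sign of each label difference kept, the low value lay above the high one by the amount given in Cd3e (3.12), Tff3 (2.89), Ptprc (2.24), Apob (2.20), Ush1c (1.86), Abcg5 (1.86), Baiap2l2 (1.83), Psmb11 (1.70), Myo1a (1.60), Creb3l3 (1.59), Apoa1 (1.59), Cdx2 (1.36), Slc5a1 (1.25), Krt1 (1.18), Hnf4a (1.17), Foxj1 (1.11), Cdx1 (1.07), Gata4 (1.03) and Enpep (0.98). The low value lay below the high one in Cldn15 (-3.26), Gata6 (-3.07), Fcgrt (-2.72), Krt5 (-2.02), Pecam1 (-1.52), Gp2 (-1.23), Cd36 (-1.05), Muc13 (-1.05), Pou2f3 (-0.89), H2-Aa (-0.65), Dgat1 (-0.61), Myo1d (-0.57) and Calml4 (-0.38). The label difference itself was called in opposite directions in the 2 gates in some of these genes, as in Ptprc, Fcgrt and Cd3e. Cd3e was at 1.16 at low and -1.97 at high, but its call at low (adjusted p = 0.023) depended on the setting (limma-voom 0.19). Psmb11 (-1.41 at low and -3.11 at high) and Enpep were called lower in both, Enpep at low not in all settings. At high MHC class II Cldn15 (0.21), Pecam1 (-0.26) and Cd36 (-0.14) were not called (adjusted p = 0.7, 0.23 and 0.71). The sign of these 3 genes there is therefore not settled. Others listed were also not called in 1 gate in the main fit. Among them were Gata6 (0.76, adjusted p = 0.22), H2-Aa (0.19, adjusted p = 0.25) and Baiap2l2 (0.87, adjusted p = 0.1) at high. At low Myo1d (0.09, adjusted p = 0.48) was not called. Baiap2l2, Dgat1, Cd36 and Cdx2 lost the call of the gap without each of several single libraries.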

How the results depend on the processing

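Over 24 alternatives, 1056 of 1071 log2 differences of the 9 genes kept their direction and their side of the threshold, or moved by less than the replicate spread. Lgals4 between the RFP+ gates was near 0 throughout: its log2 difference of 0.0068 was -0.035 with RLE size factors, -0.043 with DESeq2, -0.056 with no filter, -0.0024 with only the 2 populations, -0.0095 without mitochondrially encoded genes, and -0.060 to 0.041 with single libraries left out. Pigr between the RFP+ gates was -0.38 to -0.28 with single libraries left out (adjusted p = 0.0018 to 0.027), and -0.25 (adjusted p = 0.069) without RFP+ MHCIIlo replicates 1 and 4 together. Of 477 counts, 473 stayed within 1.5 times. The exceptions concerned enterocyte list genes lower with the label at high MHC class II: 5 became 10 with limma-voom, 10 with only the 2 populations, 9 without RFP+ MHCIIlo replicates 1 and 4 together, and 4 to 8 with single libraries left out; the cause was not tested. The fit to only 2 populations was not run for the gap between the label differences.

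The replicate numbers were not treated as pairing the samples, since the labels name nothing that same-numbered libraries share and 4 of 24 same-numbered pairs correlated over 0.1. Deviations of these pairs correlated by -0.02 to 0.13 (median 0.06, against -0.02 over other pairs), and 14 of 16 libraries correlated best with their own number, a hint from the data only. With the replicate block, genes higher and lower with the label numbered 5677 and 4546 at low (without it 5677 and 4452) and 4757 and 4255 at high MHC class II (4672 and 4158). Enterocyte list genes numbered 67 and 6 at low and 58 and 7 at high.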
